A study of Mus musculus with 8 samples.

Results

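miR-103-3p and miR-107-3p (mmu-miR-103-3p and mmu-miR-107-3p in mouse) are near-identical microRNAs (miRNAs), represented here by 7 distinct read sequences of 11568 in the deposited table. Members were the sequences whose annotation named mature miR-103 or miR-107, and all of these annotations were of the 3p arm. Of the 7, 2 were annotated to miR-103-3p alone, 2 to miR-107-3p alone and 3 to both, and the shared sequences were kept apart. Small RNA came from MIN6B1 cells, a mouse insulinoma line that serves as a pancreatic beta cell model. One set of cells received a control (CTRL) plasmid and another the HENMT1ΔC-T6B methyltransferase plasmid, and RNA of each kind was sequenced without and with sodium periodate oxidation. This gave 4 groups of 2 libraries: non-oxidized control, oxidized control, non-oxidized methyltransferase and oxidized methyltransferase RNA. Lipofectamine was the carrier in every group, and the labels give a range of incubation times but not the time of each library. The labels do not say whether replicates were separate cultures, so p-values measure only the spread between these libraries, which may be technical.

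miRNAs guide Argonaute proteins to target messages mainly through their seed, bases 2 to 8 from the 5′ end. miR-103 and miR-107 have been studied in liver and fat as regulators of insulin sensitivity, with caveolin-1 as a described target, and lie in introns of pantothenate kinase genes. Periodate attacks the free 3′ end of an RNA and blocks its cloning, while an RNA methylated there is spared. HENMT1 is a small RNA 3′ methyltransferase, and T6B is a peptide that binds Argonaute, so the fusion is designed to mark Argonaute-bound small RNAs.

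The mature sequences, from RefSeq (GRCm38.p6), show that both miRNAs have the same seed, here in capitals.
miR-103-3p: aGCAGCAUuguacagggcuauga
miR-107-3p: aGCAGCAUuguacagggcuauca

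Over their 23 bases they differ at 1 position, G22C counted from the 5′ end of miR-103-3p. The 7 deposited sequences are shown because their 3′ ends decide both their annotation and their length. Position 22 is in capitals where it is present.
miR-103 23-nt: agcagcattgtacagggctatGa
miR-103 22-nt: agcagcattgtacagggctatG
miR-107 23-nt: agcagcattgtacagggctatCa
miR-107 22-nt: agcagcattgtacagggctatC
miR-103/miR-107 21-nt: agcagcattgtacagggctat
miR-103/miR-107 20-nt: agcagcattgtacagggcta
miR-103/miR-107 19-nt: agcagcattgtacagggct

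All 7 begin at the same base and shorten from the 3′ end. Forms of 21 nucleotides (nt) or fewer end before position 22 and cannot be assigned to either miRNA. The hairpins, also from RefSeq, show the mature 3p arm in capitals and the bases that follow it in the genome.
Mir103-1: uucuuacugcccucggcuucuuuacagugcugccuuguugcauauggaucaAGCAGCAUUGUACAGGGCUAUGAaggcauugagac
Mir103-2: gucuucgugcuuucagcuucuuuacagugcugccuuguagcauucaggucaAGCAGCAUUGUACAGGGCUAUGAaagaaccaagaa
Mir107: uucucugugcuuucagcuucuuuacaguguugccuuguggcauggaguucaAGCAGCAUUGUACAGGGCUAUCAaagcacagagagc

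In GRCm38, mature miR-103-3p lies at chromosome 11, 35782447 to 35782469 (Mir103-1, plus strand) and at chromosome 2, 131288103 to 131288125 (Mir103-2, plus strand). Its reads cannot be divided between these genes. Mature miR-107-3p lies at chromosome 19, 34820700 to 34820722 (Mir107, minus strand). In the GENCODE M21 annotation the 3 hairpins lie on the same strand within Pank3, Pank2 and Pank1, in that order, and overlap no exon of these genes. The deposited table gives 2 genomic matches for the miR-103 sequences, 1 for the miR-107 sequences and 3 for the shared ones.

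The listed sequences held 295094 to 6641250 counts per library, with the lowest totals in oxidized control RNA. In both oxidized methyltransferase libraries every listed sequence has 2 counts or more, with a sum of 10 or more, a minimum no other group meets. The table was thus selected on the oxidized methyltransferase group, and totals are not library depths. The beta cell miRNA miR-375-3p was abundant in non-oxidized control RNA, with 419998 and 408024 counts of its main sequence, in keeping with the labelled cell type.

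In non-oxidized control RNA the 7 sequences together had 10736 and 12937 counts, which were 0.305% and 0.296% of mature miRNA counts. With the methyltransferase plasmid before oxidation they had 4591 and 5519 counts, or 0.204% and 0.181%. After oxidation they had 1006 and 764 counts, or 0.0492% and 0.0465%. Oxidized control RNA held 16 and 17 counts, or 0.116% and 0.168% of the few miRNA counts left there. In bulk RNA, fewer cells with a miRNA and less of it per cell cannot be told apart. The share of the pair within miRNA counts was thus lowest in oxidized methyltransferase RNA, and the library values of no 2 groups overlapped. The oxidized control shares rest on 16 and 17 counts, and counting error was not computed for shares of miRNA counts. As a share of all listed counts, the order differed: oxidized control RNA was lowest, at 0.00365% (95% Wilson interval 0.00225% to 0.00593%) and 0.00576% (0.0036% to 0.00923%), and oxidized methyltransferase RNA had 0.0324% (0.0305% to 0.0345%) and 0.0312% (0.0291% to 0.0335%). These intervals cover counting error only.

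The most abundant form was the 23-nt sequence of mmu-miR-103-3p, the full mature form. Before oxidation it had 5247 and 5990 counts with the control plasmid, against 2177 and 2421 with the methyltransferase. It had 745 and 541 counts in oxidized methyltransferase RNA and 0 in both oxidized control libraries. A count of 0 allows up to 0.000684% and 0.00102% of listed counts in those libraries (3 counts of the total).

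The 22-nt sequence of miR-103, which lacks the last A, was nearly as abundant before oxidation, at 3847 and 4888 counts in control and 1651 and 2178 in methyltransferase RNA. It fell further behind after oxidation, with 130 and 117 counts in methyltransferase RNA, and kept 3 and 9 counts in oxidized control RNA.

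For mmu-miR-107-3p the 22-nt sequence was the most abundant. Before oxidation its counts were 305 and 244 with the control plasmid, against 108 and 132 with the methyltransferase. It had 85 and 47 counts in oxidized methyltransferase RNA and 0 in both oxidized control libraries. The 23-nt sequence of miR-107 had 113 and 132, then 92 and 108 counts in the non-oxidized groups, 18 and 8 in oxidized methyltransferase RNA and 0 in oxidized control RNA. At either length, miR-107 was the rarer of the pair in every library where either was counted at that length, apart from the 0 counts in oxidized control RNA that both have at 23 nt.

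Among the shared forms, the 21-nt sequence went from 727 and 971 counts in unoxidized control RNA to 0 in both oxidized control libraries, and had 16 and 13 in oxidized methyltransferase RNA. The 20-nt sequence had 151 and 231 counts before oxidation with the control plasmid. Oxidation left 4 and 18 with the methyltransferase and 1 and 0 with the control plasmid. The 19-nt sequence had 346 and 481 counts before oxidation with the control plasmid. In oxidized control RNA it kept 12 and 8 counts, the highest sum of the 7 forms, against 8 and 20 in oxidized methyltransferase RNA, and these 2 groups overlapped.

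**Figure D1:**
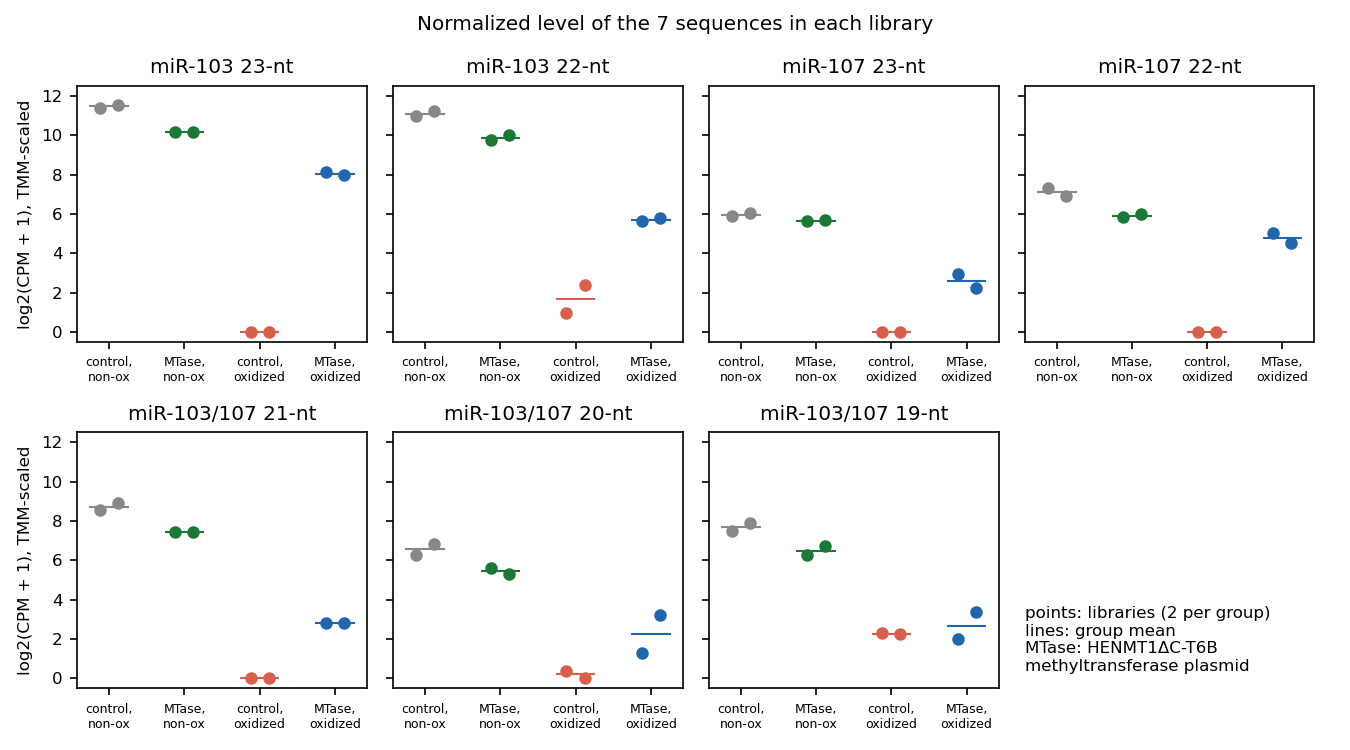
Level of each of the 7 sequences in each library, as log2(CPM + 1), with counts scaled to library size by TMM. Points are libraries and lines are group means. In oxidized control RNA 4 of the 7 sequences are at 0 in both libraries, and the 19-nt sequence is the only one whose oxidized groups overlap.

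Which forms were spared from oxidation by the methyltransferase is asked by comparing the plasmids in oxidized RNA. Counts of all sequences were fitted with edgeR's quasi-likelihood test after TMM scaling (trimmed mean of M-values, which sets library scale from the bulk of sequences), and p-values were adjusted by Benjamini-Hochberg over 9851 sequences. A call is an adjusted p under 0.05, and all 7 members passed the low-count filter. Of the 7, 6 rose with the methyltransferase and 0 fell, against 42.3% of all tested sequences called higher and 3.92% called lower. Among 607 mature miRNA sequences, 518 were called higher and 1 lower. The minimum set on oxidized methyltransferase RNA favours this direction in every listed sequence. The median fitted log2 fold change was 6.58 over the 7, 6.49 over 607 mature miRNA sequences and 0.82 over all sequences tested.

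Where both oxidized control libraries had 3 counts or fewer, folds are lower bounds under TMM scaling, with each such library at 3 counts. A p-value beside a bound, here and below, is that of the fitted log2 fold change and not of the bound. For the 23-nt miR-103 sequence the methyltransferase level was at least 221-fold the control level (edgeR adjusted p 9.19e-07). The 22-nt miR-107 sequence was at least 22.4-fold higher (adjusted p 1.62e-05). These bounds depend on scaling: as log2 values they are 7.79 and 4.48 here, 4.76 and 1.46 with total counts, and 3.63 and 0.32 with miRNA sequences fitted alone. Both sequences had 0 counts in oxidized control RNA, so the bounds do not rank the 2 miRNAs.

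The 22-nt miR-103 sequence had reads in both groups and rose by a log2 value of 4.36 ± 0.57 (SE, edgeR adjusted p 6.71e-05). This rested on few counts in the control. Without the second oxidized control library it was 5.68, a lower bound since the first has 3 counts, and without the first 3.57. With total counts it was 1.36 and not called (adjusted p 0.053, edgeR). The 23-nt miR-107 sequence was at least 4.36-fold higher (edgeR adjusted p 4.05e-04). For the shared 21-nt sequence the bound was 5.02-fold (adjusted p 1.39e-04, edgeR) and for the 20-nt sequence 4.12-fold (0.00636). As a log2 value the bound of the 20-nt sequence was 2.04, and it was 0.79 without the second and 2.80 without the first oxidized methyltransferase library. Without the second, the bounds of the 22-nt and 23-nt miR-107 sequences rose from 4.48 to 5.20 and from 2.12 to 2.96.

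The 19-nt sequence was the exception, with a log2 difference of 0.64 ± 0.59 (adjusted p 0.438, edgeR), and its sign depended on scaling. Scaling by total counts moved the median over all sequences by -2.99 and gave this form -2.35, called lower (edgeR adjusted p 0.00778), and upper-quartile scaling gave -0.27. In the authors' deposited table it was likewise the 1 member without a call in this comparison (adjusted p 0.387), while the other 6 had adjusted p-values from 8.31e-14 to 0.00659. With total counts the bounds of the 21-nt, 20-nt and 23-nt miR-107 sequences fell below 1-fold and give no direction.

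Oxidation with the control plasmid measures what is lost without the enzyme. All 7 sequences fell under TMM scaling, against 46.4% of all tested sequences called lower. Of 607 mature miRNA sequences 563 were called lower, with a median log2 fold change of -8.69. The 23-nt miR-103 sequence was at least 2368-fold lower (edgeR adjusted p 2.71e-07) and the 22-nt miR-107 sequence at least 116-fold lower (1.53e-06). As log2 values these bounds are -11.21 and -6.86, against -6.78 and -2.45 with total counts and -4.95 and -0.62 with miRNA sequences fitted alone. The 22-nt miR-103 sequence, with reads left, fell by 9.78 ± 0.67 on the log2 scale (edgeR adjusted p 4.68e-07). Its value was -9.04 without the first oxidized control library and -11.15 without the second, the latter a bound since the first has 3 counts. The 19-nt sequence had a log2 value of -5.74 ± 0.62 (edgeR adjusted p 9.5e-06). Total counts, which shift this median by 4.34, gave it -1.32 with an edgeR adjusted p of 0.0578. The other 6 were called lower there, against 2331 of 9851 sequences called lower and 5202 called higher. In a fit of miRNA sequences alone, with 411 of 865 sequences called lower, the 19-nt and 20-nt sequences lost their call.

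Oxidation with the methyltransferase plasmid compares the scaled level of each form after and before oxidation, and its size depends on the scaling. Of the 7, 6 fell and 0 rose, against 11.2% of all tested sequences called lower and 1.77% called higher. Among 607 mature miRNA sequences, 251 were called lower and 0 higher. The median log2 fold change was -3.22 over the 7, -1.39 over 607 mature miRNA sequences and 0.09 over all sequences. The forms did not behave alike. In TMM-scaled counts, the 22-nt miR-107 sequence in oxidized RNA was at 45.1% of its non-oxidized mean and the 23-nt miR-103 sequence at 23.2%. The 20-nt sequence was at 11.2%, the 23-nt miR-107 sequence at 10.5%, the 19-nt sequence at 6.75%, the 22-nt miR-103 sequence at 5.44% and the 21-nt sequence at 3.48%.

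The 23-nt miR-103 sequence went from 1139 and 1133 to 277 and 251 CPM (counts scaled to library size by TMM), a fall of 2.11 ± 0.36 on the log2 scale (edgeR adjusted p 0.00283). The 22-nt miR-103 sequence went from 864 and 1020 to 48.3 and 54.2 CPM and fell by 4.20 ± 0.50 (adjusted p 1.93e-04). The libraries did not overlap in either case, and the sequence shorter by 1 base had the larger fall.

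For miR-107 the order of lengths was the opposite. The 22-nt sequence went from 56.5 and 61.8 to 31.6 and 21.8 CPM, a log2 value of -1.15 ± 0.44 that was not called (edgeR adjusted p 0.131). The 23-nt sequence went from 48.2 and 50.6 to 6.69 and 3.71 CPM and fell by 3.22 ± 0.52 (adjusted p 0.00205). The 2 oxidized libraries of the 23-nt form rest on 18 and 8 counts.

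The shared 21-nt sequence fell by 4.83 ± 0.46 (adjusted p 6.24e-05, edgeR). The 19-nt sequence fell by 3.90 ± 0.57 (adjusted p 7.43e-04) and the 20-nt sequence by 3.19 ± 0.70 (adjusted p 0.0103). The call of the 20-nt sequence was lost with total counts (adjusted p 0.0599), with only the 4 libraries compared (0.0562) and without the first oxidized methyltransferase library (0.0585). That library and the second moved the short forms: without the first, the 20-nt sequence was at -2.41 and the 19-nt sequence at -3.30. Without the second they were at -4.68 and -4.73, next to -4.68 for the 21-nt sequence, so the order of these 3 forms rests on 1 library. The authors' deposited table gives the same 6 members as lower after oxidation, with signed fold changes of non-oxidized over oxidized RNA from 4.18 for the 23-nt miR-103 sequence to 28.1 for the 21-nt sequence. It gives 2.10 for the 22-nt miR-107 sequence (adjusted p 0.197 in the authors' deposited table).

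The size of these falls depended on scaling, which moves all forms by nearly the same log2 amount. Total counts, which shift the median of this comparison by 0.87, gave -1.24 for the 23-nt miR-103 sequence. A fit of miRNA sequences alone gave -0.72 (edgeR adjusted p 0.0615), so that its call was lost. For the 22-nt miR-107 sequence the same fit gave 0.24 (adjusted p 0.627), with the sign reversed. Relative to other miRNAs, then, a fall of the main sequence of either miRNA was not called, while the other 5 forms were called lower. In the fit of miRNA sequences alone, 194 of 865 sequences were called lower and 157 higher.

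**Figure D2:**
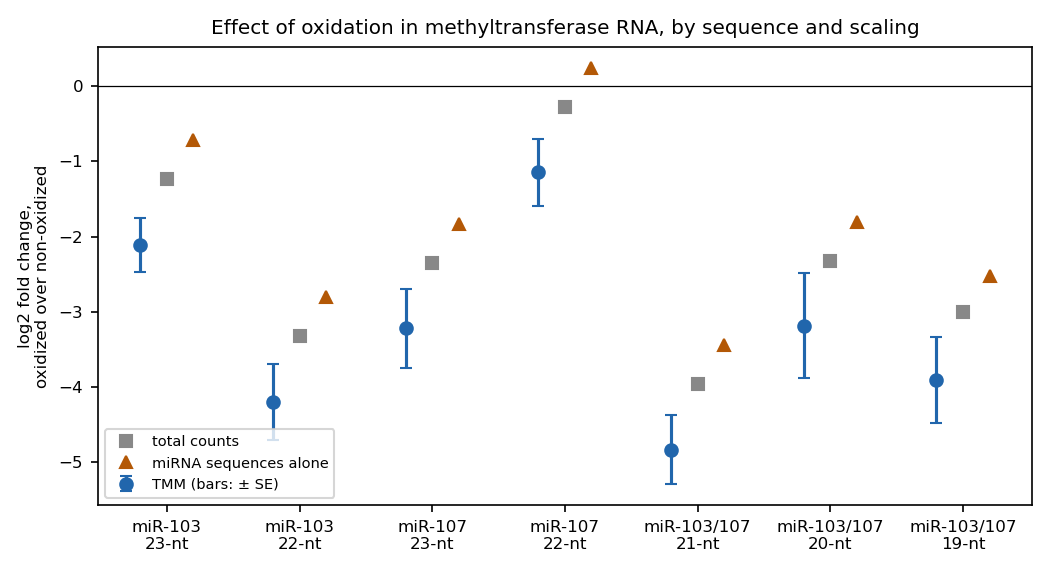
Log2 fold change of oxidized over non-oxidized methyltransferase RNA for each sequence under TMM scaling (circles, bars are ± SE), total counts (squares) and a fit of miRNA sequences alone (triangles). The 3 scalings shift all sequences by nearly the same amount, and only the 22-nt miR-107 sequence crosses 0.

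Ratios of forms within a library do not depend on scaling. The 22-nt form made up 43.6% ± 1.86 (SD, n = 2) of the 22-nt and 23-nt counts of miR-103 in non-oxidized control RNA and 45.2% ± 2.99 in non-oxidized methyltransferase RNA. After oxidation with the methyltransferase it was 16.3% ± 2.07, from 14.9% (95% Wilson interval 12.7% to 17.4%) and 17.8% (15.0% to 20.9%). For miR-107 the 22-nt form was 68.9% ± 5.71 and 54.5% ± 0.707 before oxidation and 84.0% ± 2.07 after it. The oxidized methyltransferase libraries were thus below the non-oxidized ones for miR-103 and above them for miR-107, with no overlap. In oxidized control RNA all 3 and all 9 such counts of miR-103 were of the 22-nt form. The smallest p that 2 libraries a group allow in a two-sided exact permutation test is 0.333, the value of each of these oxidation comparisons with the methyltransferase (0.458 adjusted over 22 comparisons of shares).

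How much of the pair is miR-107 therefore depended on which length was counted. By the main sequence of each miRNA, miR-107 made up 4.70% ± 1.12 (SD, n = 2) of the pair in non-oxidized control RNA, 4.95% ± 0.314 in non-oxidized methyltransferase RNA and 9.12% ± 1.59 in oxidized methyltransferase RNA. Those main sequences differ in length. At 22 nt the share was 6.05% ± 1.83, 5.93% ± 0.301 and 34.1% ± 7.69, in the same order. At 23 nt it was 2.13% ± 0.0339, 4.16% ± 0.153 and 1.91% ± 0.638. With the methyltransferase, oxidation thus went with a higher miR-107 share at 22 nt and a lower one at 23 nt. Oxidized and non-oxidized methyltransferase libraries did not overlap in either case (exact permutation p 0.333 each, the smallest possible). At 23 nt the non-oxidized groups also differed without overlap, by 2.03 points. The oxidized methyltransferase libraries there (2.36% and 1.46%) lay either side of the non-oxidized control ones (2.11% and 2.16%). In oxidized control RNA neither main sequence was counted, so no such share exists there.

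**Figure D3:**
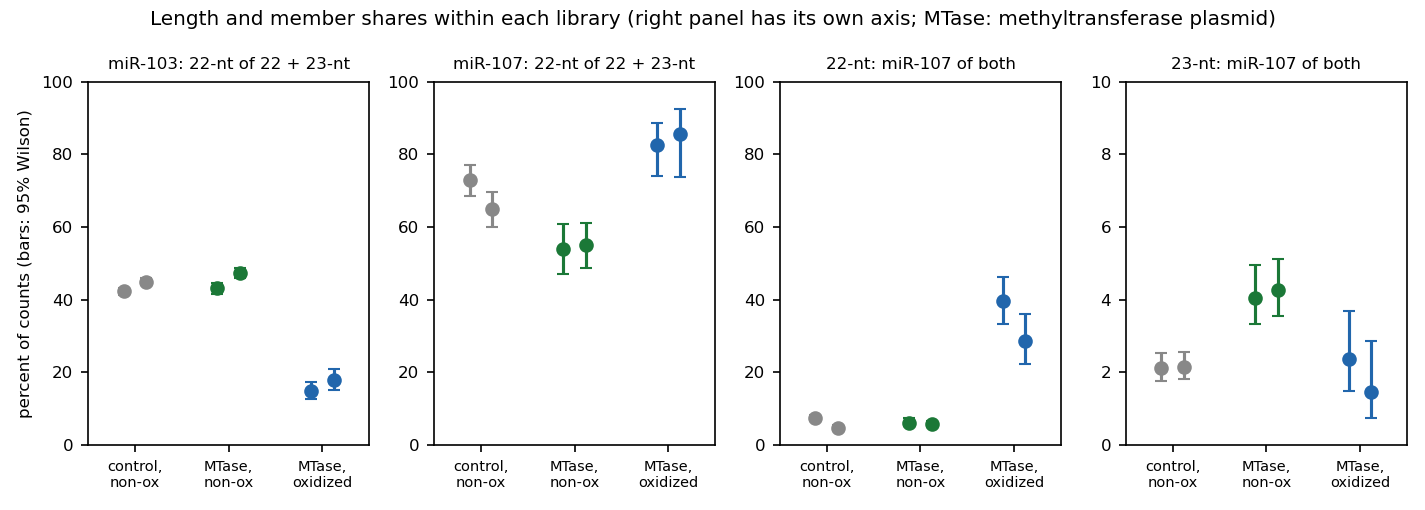
Shares of counts within each library, with 95% Wilson intervals as bars: the 22-nt form among 22-nt and 23-nt counts of miR-103 and of miR-107, and miR-107 among both miRNAs at 22 nt and at 23 nt (axis to 10%). After oxidation with the methyltransferase, the 22-nt share is lower for miR-103 and higher for miR-107. MTase is the methyltransferase plasmid.

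Reads with a wrong base could turn one miRNA into the other, and a base at position 22 that is in neither miRNA gives a measure of this. A 22-nt sequence ending in A (agcagcattgtacagggctatA, with no annotation) had 15 and 39 counts before oxidation with the control plasmid and 14 and 15 with the methyltransferase, then 13 and 10 after oxidation with the latter. Among 22-nt reads with A, C or G at that position it made up 0.557% ± 0.279 (SD, n = 2) in non-oxidized control RNA, 0.717% ± 0.102 in non-oxidized and 5.72% ± 0.0321 in oxidized methyltransferase RNA. The 22-nt miR-107 sequence had more counts than it in all 6 of these libraries. The A-ended sequence may equally be a 21-nt form with an added A, and a part of wrong bases in the miR-107 counts was not tested.

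The 22-nt forms differ only in their last base, which also decides their annotation: miR-103 at 22 nt ends in G and miR-107 at 22 nt ends in C. Among other mature miRNA sequences with at least 100 mean counts in non-oxidized control RNA, the 93 ending in G had a median log2 change of -3.44 on oxidation with the methyltransferase, and 80 were called lower. The 52 ending in C had a median of -1.92, with 28 called lower. Sequences ending in A (n = 63) and in T (n = 149) had medians of -2.06 and -1.61, with 37 and 75 called lower. The 22-nt miR-103 sequence, at -4.20, lay between the quartiles of G-ended sequences (-4.50 and -2.07). The 22-nt miR-107 sequence, at -1.15, lay between those of C-ended ones (-2.51 and -0.46) but also between those of A-ended (-2.60 and -1.09) and T-ended ones (-2.84 and -0.50). The A-ended 23-nt miR-103 sequence, at -2.11, lay between its quartiles as well. The other 4 members were below the quartiles of their own last base: the T-ended 21-nt and 19-nt sequences at -4.83 and -3.90, and the A-ended 20-nt and 23-nt miR-107 sequences at -3.19 and -3.22. These are descriptions, since many of the sequences are forms of the same miRNA.

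Loss of 1 base had no common direction among miRNAs when all last bases were pooled. In 183 pairs of other mature sequences that differ by 1 base at the 3′ end, the median difference, shorter minus longer, was -0.15 on the log2 scale. The differences ran from -6.26 (miR-30a-3p, shorter form ending in G) to 6.44 (miR-182-5p, longer form ending in G). miR-103 had -2.09 for 22 nt against 23 nt, with 32 of the 183 pairs below it, and miR-107 had 2.07, with 26 above it. Neither pair was at the edge of this pooled range. Pairs were not compared by their last bases, so the range does not place miR-103 or miR-107 among pairs with the same ends.

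Some sequences outside the members extend them. A 23-nt sequence that ends in GT (agcagcattgtacagggctatGT) is the 22-nt miR-103 form with a T that the hairpins do not encode, or the 23-nt form with another last base. Before oxidation it had 1663 and 1820 counts with the control plasmid and 542 and 638 with the methyltransferase. After oxidation it had 206 and 101 with the methyltransferase and 0 and 4 with the control plasmid. It fell by 2.24 ± 0.56 on oxidation with the methyltransferase (edgeR adjusted p 0.0218). Its share of the sum with the unextended 22-nt form was 23.7% ± 1.46 (SD, n = 2) before and 53.8% ± 10.6 after oxidation.

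The 23-nt miR-103 form with a T added (agcagcattgtacagggctatGAT) went the other way. Its share of the sum with the unextended 23-nt form was 7.37% ± 0.0153 before and 2.70% ± 0.245 after oxidation with the methyltransferase (SD, n = 2), and it fell by 3.61 ± 0.59 (edgeR adjusted p 0.00152). The 24-nt form with the encoded A (agcagcattgtacagggctatGAA), annotated only to the hairpins, had 26 and 26 counts before and 15 and 5 after oxidation and was not called (-1.67 ± 0.60, adjusted p 0.103).

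Without oxidation, the comparison of plasmids asks whether the enzyme changed levels. The 7 sequences were all lower with the methyltransferase plasmid, with log2 values from -1.31 for the 23-nt miR-103 sequence to -0.32 for the 23-nt miR-107 sequence. None was called by edgeR (0 of 7; smallest adjusted p 0.302), the DESeq2 Wald test or limma-voom. At an unadjusted p under 0.05 there were 5 of 7. By edgeR the share of all sequences called was 0 in either direction. The DESeq2 Wald test called 36 higher and 68 lower of the 4121 sequences to which it gave an adjusted p. The median was -1.22 over the 7, -0.63 over mature miRNA sequences and 0.05 over all sequences. With total counts, which shift the median by 0.52, the 23-nt miR-103 sequence was at -0.78 and the 23-nt miR-107 sequence at 0.21.

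Whether the loss on oxidation depended on the plasmid was tested as an interaction. It was called higher in methyltransferase RNA for 6 of the 7 sequences, against 39.6% of all tested sequences and 520 of 607 mature miRNA sequences. The minimum set on oxidized methyltransferase RNA favours this direction too. The ratio of oxidized to non-oxidized RNA was at least 549-fold higher with the methyltransferase for the 23-nt miR-103 sequence and at least 52.4-fold higher for the 22-nt miR-107 sequence (edgeR adjusted p 2.33e-06 and 2.55e-05). As log2 values these bounds are 9.10 and 5.71, against 5.55 and 2.18 with total counts and 4.24 and 0.86 with miRNA sequences fitted alone. The second was 6.41 without the second oxidized methyltransferase library. The 22-nt miR-103 sequence had a log2 interaction of 5.58 ± 0.72 (edgeR adjusted p 8.74e-05). This value was 4.80 without the first oxidized control library and 6.92, a lower bound, without the second. It was 0.77 and not called with miRNA sequences fitted alone (edgeR adjusted p 0.289). The 19-nt sequence had 1.83 ± 0.77 (adjusted p 0.0787, edgeR). It was called with DESeq2 size factors (2.24), the DESeq2 Wald test (2.25), a filter of 10 counts in every library of a group (2.08) and without the first oxidized methyltransferase library (2.46). Its sign reversed with total counts (-1.68), which shift this median by -3.50, and with miRNA sequences fitted alone (-3.07, called lower).

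Other miRNAs carry the 6 bases at the 5′ end of miR-103 and miR-107 but shifted by 1 base, which gives them another seed. They are shown, from RefSeq, with the shared 6 bases in capitals.
miR-103-3p: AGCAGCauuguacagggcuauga
miR-107-3p: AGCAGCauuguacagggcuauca
miR-15a-5p: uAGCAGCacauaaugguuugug
miR-15b-5p: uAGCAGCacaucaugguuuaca
miR-16-5p: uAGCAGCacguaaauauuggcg
miR-195a-5p: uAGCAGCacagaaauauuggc
miR-322-5p: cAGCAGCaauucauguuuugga
miR-497a-5p: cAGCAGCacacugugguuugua
miR-503-5p: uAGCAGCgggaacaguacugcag

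Of these 7 relatives, 5 had a listed sequence. Their main sequences were all called higher with the methyltransferase in oxidized RNA, and 4 of 5 were called lower on oxidation with it. miR-16-5p, an abundant member of the miR-15/16 family known for restraint of cell cycle genes, fell from 145502 and 188275 to 2389 and 1386 counts, by 6.75 ± 0.48 on the log2 scale (edgeR adjusted p 1.19e-05). Its main sequence ends in G. miR-15a-5p fell by 4.03 ± 0.65 (adjusted p 0.00146), miR-15b-5p by 3.67 ± 0.43 (2.71e-04) and miR-497a-5p by 2.78 ± 0.47 (0.0026). miR-195a-5p, with 44 and 34 then 5 and 16 counts, had -2.09 ± 0.65 (0.0634). The main sequences of miR-103 and miR-107 lay toward the upper end of this group, with miR-195a-5p at nearly the same value as miR-103. The difference between the miRNAs was not tested.

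**Figure D4:**
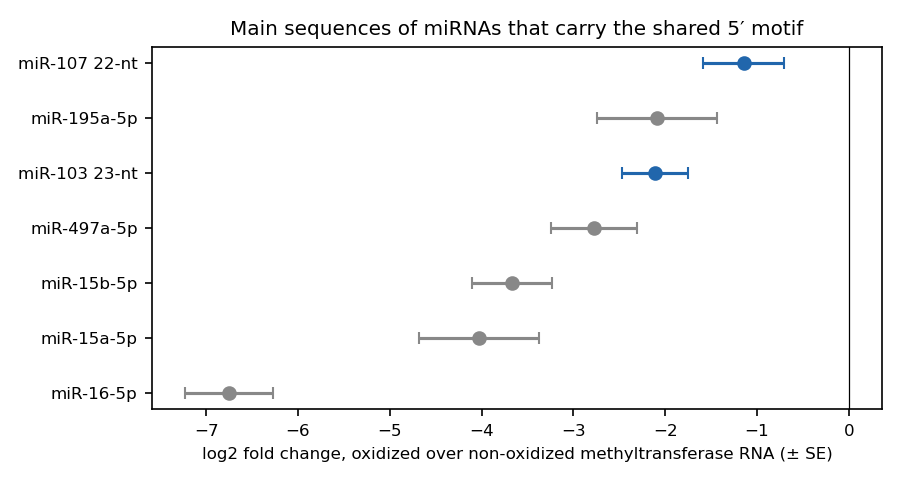
Log2 fold change (± SE, edgeR) of oxidized over non-oxidized methyltransferase RNA for the main sequences of miR-103 and miR-107 (blue) and of the 5 listed relatives with the shared 6 bases (grey). miR-16-5p is lowest and miR-107 is highest.

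Among the main sequences of 124 other mature miRNAs with at least 100 mean counts in non-oxidized control RNA, the median log2 change on oxidation with the methyltransferase was -2.26, with a range of -8.04 to 0.70. The main miR-103 sequence was near the middle, with 63 of the 124 below it, and the main miR-107 sequence was higher than 90 of them. Of the 124, 78 were called lower, and 76 had, like miR-103 and miR-107, no count in either oxidized control library.

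The 5 miRNAs with the profile most like the main miR-103 sequence over the 8 libraries were miR-340-5p, miR-7a-5p, miR-29b-3p, miR-185-5p and miR-429-3p. Likeness was the distance between log2(CPM + 1) values centred on each sequence's own mean, from 0.74 for miR-340-5p to 1.67 for miR-429-3p, with a median of 4.32 over the 124. miR-340-5p had 2652 and 2614 counts before and 693 and 598 after oxidation with the methyltransferase, a fall of 2.29 ± 0.36 (edgeR adjusted p 0.00174) beside 2.11 for miR-103. miR-7a-5p, a beta cell miRNA, fell by 1.74 ± 0.40 (0.0133). The main miR-107 sequence was farther from miR-103 than these, at 5.01, with 79 of the 124 closer. Values of 0 in oxidized control RNA make this distance depend on abundance.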

How the data were processed

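Per the labels' protocols, total RNA of MIN6B1 cells was turned into small RNA libraries by the QIAseq miRNA procedure. The authors deposited 1 table with raw counts per distinct read sequence in 8 libraries. Aligner, genome build, trimming, use of molecular identifiers and counting tool are not given in the sources used here. The signed fold changes of the authors' deposited comparisons were read as a score and their deposited adjusted p-values used as given. Another 16 per-library columns were not used. The 12608 lines were merged to 11568 sequences by identifier.

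The quasi-likelihood test of edgeR 4.0.16 (R 4.3.3) was applied to the counts after filterByExpr and TMM. A single model held the 4 groups, without a replicate term, with 5 contrasts and Benjamini-Hochberg adjustment over all sequences tested. SE is the size of the log2 fold change divided by the square root of the F statistic. Alternatives were DESeq2 1.42.0 size factors and Wald test, total counts, upper quartile, limma-voom (limma 3.58.1), other filters, only the libraries compared, miRNA sequences alone, a replicate block and leaving out each library. Length-matched shares of miR-107 were chosen after seeing the data. Shares were compared by exact permutation tests, adjusted over all 22 made.

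Named sequences were the 7 members, the main sequences of the relatives and of the 5 miRNAs nearest in profile, and a sequence differing at position 22. The comparisons by last base, by 1-base pairs and of extended forms were added after the values were seen. Members and lists were chosen with earlier results of these data known.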

Additional observations from a re-analysis of the deposited data

Results flagged for a closer look

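For 6 of the 7 sequences the interaction test found that loss on oxidation was unlike with the 2 plasmids (edgeR adjusted p under 0.05). Over all tested sequences it was called higher for 39.6% and lower for 3%. The minimum set on oxidized methyltransferase RNA favours the higher direction in every listed sequence. As log2 values, lower bounds where oxidized control RNA had 3 counts or fewer, the interaction was 9.10 for the 23-nt and 5.58 for the 22-nt miR-103 sequence. It was 5.71 for the 22-nt and 2.44 for the 23-nt miR-107 sequence, and 3.64 and 3.16 for the shared 21-nt and 20-nt sequences. Without the second oxidized methyltransferase library the 20-nt value was 1.88 and the 23-nt miR-107 value 3.26, and without the first the 20-nt value was 3.93. The 22-nt miR-103 value was 4.80 to 6.92 over the libraries left out, where 6.92 is a lower bound. Under total counts the bounds of the 23-nt miR-107 and 20-nt sequences fell below 0 and give no direction.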

How the results depend on the processing

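The recomputed values covered the main miR-103 and miR-107 sequences, the counts of called members and the share of miR-107. Of these, 275 were kept, 1 lost its call, 3 moved and 4 reversed. For the main sequences, kept means the same direction and side of the threshold. A count of called members was kept if it was near the main one, such as 5 beside 7. With miRNA sequences fitted alone, the main miR-103 sequence on oxidation with the methyltransferase was -0.72 and not called, and the main miR-107 sequence 0.24. In that fit 3 members were called between plasmids in oxidized RNA and 3 in the interaction, the 23-nt miR-103, 22-nt miR-107 and 19-nt sequences, the last in the opposite direction. Of the 865 sequences in that fit, 339 were called higher and 98 lower between plasmids in oxidized RNA. In its interaction 310 were called higher and 91 lower. There the 19-nt sequence was -3.55 between plasmids in oxidized RNA, -3.07 in the interaction and 0.55 on oxidation with the control plasmid, and the 23-nt miR-107 sequence was 0.38 between plasmids in non-oxidized RNA. With only the libraries compared, 3 members were called in oxidized RNA of 4 tested, since the 20-nt, 21-nt and 23-nt miR-107 sequences did not pass the filter without the non-oxidized libraries. Of all 6880 sequences tested that way, 2177 were called higher and 75 lower. With total counts the 19-nt sequence was -2.35 between plasmids in oxidized RNA and -1.68 in the interaction, and the 23-nt miR-107 sequence was 0.21 between plasmids in non-oxidized RNA. With the upper quartile the 19-nt sequence was -0.27 in oxidized RNA. The cause of these changes was not tested.

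Leaving out each library moved the difference in miR-107 share between plasmids in non-oxidized RNA from 0.24 percentage points to between -0.55 and 1.03. At 22 nt this difference was -0.12, and at 23 nt 2.03. On oxidation with the methyltransferase the difference moved from 4.17 points to between 3.04 and 5.29, and at 23 nt it was -2.25. Replicate numbers are shared across groups, but the labels do not say that they pair libraries. Deviations of same-numbered libraries correlated from -0.03 to 0.38 over pairs of groups. A replicate block changed 0 of 35 calls of members and left the main miR-103 sequence at -2.11 (edgeR adjusted p 0.00264) on oxidation with the methyltransferase. Depth limits oxidized control RNA, where 3 counts are up to 0.00102% of listed counts.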
